A study of Mus musculus with 24 samples.

Results

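Acetylcholine is made in the nucleus accumbens (NAc) mainly by a sparse class of cholinergic interneurons, and acts there on muscarinic and nicotinic receptors of neighbouring neurons and of incoming axons. Choline is taken up by the transporter Slc5a7, joined to an acetyl group by the enzyme Chat, loaded into vesicles by Slc18a3, and split again outside the cell by Ache. Muscarinic receptors signal through G proteins and nicotinic receptors are ion channels built of several subunits. The genes described here are these 4 and the receptor genes Chrm1, Chrm2, Chrm4, Chrna4 and Chrnb2, 9 genes chosen by symbol. Of these, 8 had a row among the 38293 genes of the mRNA count table, and all 8 passed the filter on low counts that left 18593 genes to test. Slc18a3 was not analysed here.

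The libraries came from NAc punches of C57BL/6J mice, 9 weeks old by the sample labels and 8 weeks old by the methods. In each library, 10 punches from 5 mice were pooled. Subchronic variable stress (SCVS) was 6 days of 3 stressors in rotation, foot shock, tail suspension and restraint, and tissue was taken 24 h after the last of them. The 4 groups were nonstressed males (NSM), stressed males (SM), nonstressed females (NSF) and stressed females (SF), with 3 mRNA and 3 small RNA libraries each, and the female pools held mice in proestrus or estrus at collection. A library is named by its group and number, so NSF2 is the pool numbered 2 of nonstressed females.

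Levels are in CPM, the reads of a gene relative to all reads of its library, after TMM scaling, which corrects for differences in library composition. Depth was 41076780 to 60867747 reads per mRNA library, and each of the 8 genes had at least 383 reads in every library. The summed level of 10 striatal projection neuron markers was 5645 to 7085 CPM, so the tissue named in the labels was present, and no marker of any cell type list was at 0 in any library. The summed level of 8 cortical glutamatergic markers, among them the vesicular glutamate transporter Slc17a7, ran from 7.19 CPM in NSM2 to 369 CPM in NSF3. It was 259 CPM in NSF1, 200.1 CPM in SM3, 149 CPM in SM2 and 116 CPM in SF3, and under 50 CPM in the other 7 libraries. Libraries of the same group therefore differed in cortical marker mRNA. In bulk tissue, fewer cells of a type and less RNA per cell cannot be told apart.

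The 4 comparisons were SM with NSM, SF with NSF, the difference between these effects of stress (the interaction of sex and stress) and NSF with NSM. They share libraries: NSM and NSF each serve in 2 of the pairwise comparisons, and the interaction uses all 4 groups. A gene was called where the limma test gave an unadjusted p below 0.05 and a fold of at least 1.3, and p-values adjusted over all 18593 genes by Benjamini-Hochberg are given beside. In males 1 of the 8 genes was called, Chrna4, against 6.44% of all genes tested (2.36% called higher in SM and 4.08% lower). In females 0 were called, against 1.73% of all genes (0.640% higher in SF and 1.09% lower). In the interaction 1 was called, Chrna4 again, against 4.42% (2.25% positive and 2.17% negative), and between the nonstressed sexes 1 was called, Chrna4, against 5.31% (4.17% higher in NSF and 1.15% lower). With an adjusted p below 0.05 as the call, 0 of the 8 passed in any comparison, against 3.32%, 0%, 0.0269% and 0.285% of all genes in the same order. With other settings Chrna4 did pass it: its adjusted p ran from 0.00769 to 0.325 in males, 0.0181 to 1.000 in females, 0.00209 to 0.999 in the interaction and 0.000724 to 0.758 between the nonstressed sexes. The median log2 fold change of the 8 genes was -0.03 in males, 0.04 in females, 0.10 in the interaction and -0.01 between the nonstressed sexes, where the medians over all genes were -0.01, -0.00, 0.01 and 0.00.

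**Figure D1:**
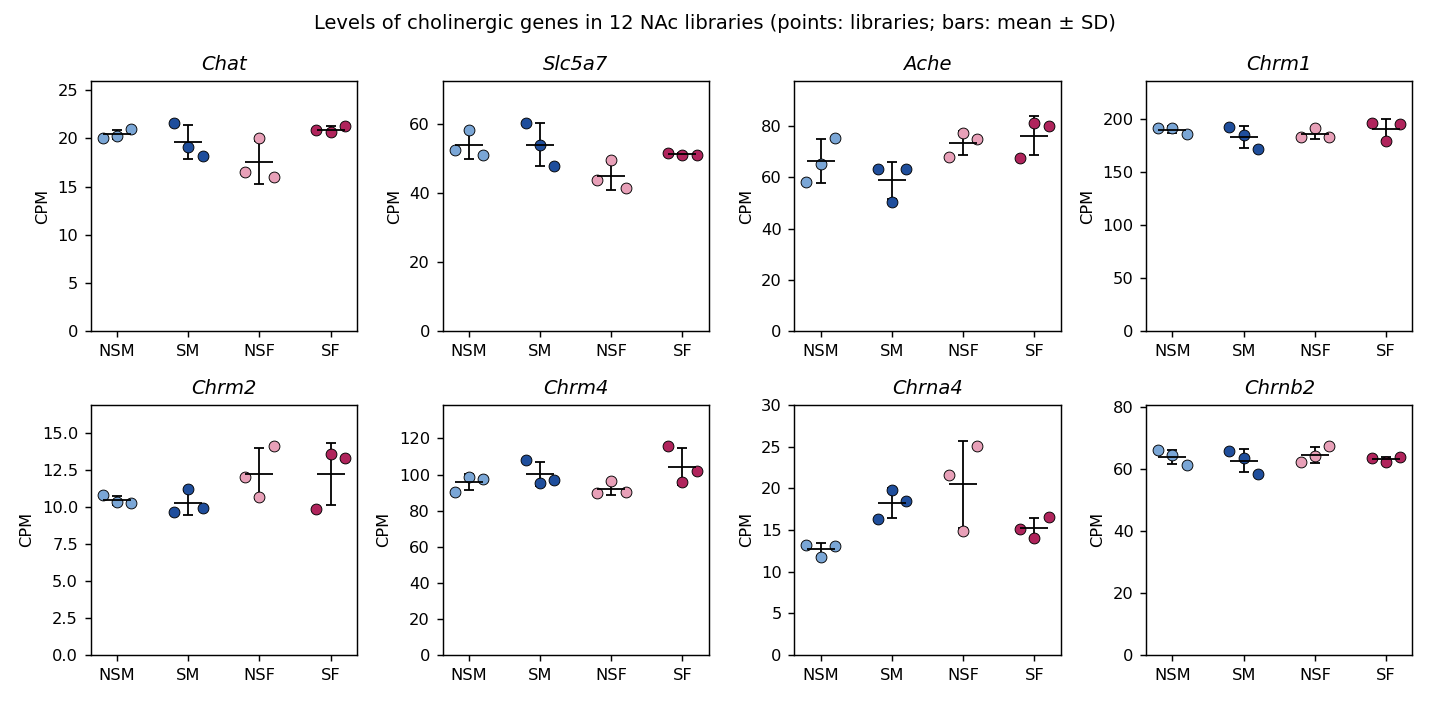
Level in CPM (vertical axis, from 0) of each of the 8 genes in the 12 libraries, by group. Points are libraries of 5 pooled mice, and bars give the mean and SD of 3. Chrna4 is spread from 11.8 to 25.0 CPM, while Chrm1 and Chrnb2 differ little between libraries.

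Chrna4, which encodes the nicotinic alpha subunit that pairs with the Chrnb2 product in the main high-affinity nicotinic receptor of the brain, was the member that varied most. The gene lies on the minus strand at chr2:180753085-180778251 of NCBIM37, the build of the counts. Its level was 13.3, 11.8 and 13.0 CPM in the NSM libraries 1 to 3, and 16.3, 19.8 and 18.5 CPM in the SM libraries. It was 21.6, 14.8 and 25.0 CPM in the NSF libraries and 15.1, 14.1 and 16.5 CPM in the SF libraries. Every SM library was above every NSM library. In females the groups overlapped, because NSF2 lay within the range of the SF libraries while NSF1 and NSF3 were the highest of all 12.

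In stressed males Chrna4 rose by 0.52 on the log2 scale (SE 0.16, 95% interval 0.18 to 0.86), from 12.7 ± 0.793 to 18.2 ± 1.79 CPM (SD, n = 3 libraries), with a limma p of 0.00552 and an adjusted p of 0.0879. It was the only member of 8 whose male groups did not overlap, against 23.0% of all genes. In females the mean was 20.5 ± 5.19 CPM in NSF and 15.2 ± 1.23 CPM in SF, a log2 difference of -0.38 (SE 0.15, 95% interval -0.70 to -0.05) with an unadjusted limma p of 0.0256 and an adjusted p of 0.948. The fold of 1.2998 was short of 1.3 by less than its error, so the gene was not called. Without NSF2 the female difference was -0.62 with an adjusted limma p of 0.0181, and without SF3 it was -0.44, which both pass the thresholds. Without NSF3 it was -0.21.

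The effect of stress on Chrna4 differed between the sexes by -0.90 on the log2 scale (SE 0.22, 95% interval -1.37 to -0.43), with a limma p of 0.00111 and an adjusted p of 0.199. Between the nonstressed groups Chrna4 was higher in females by 0.64 (SE 0.15, 95% interval 0.31 to 0.97), with a limma p of 0.00105 and an adjusted p of 0.103, and every NSF library was above every NSM library. Ordered by mean, the levels were lowest in NSM, then SF, SM and NSF. NSM stood below all libraries of the other 3 groups, and neighbours among those 3 overlapped. Over all genes, the NSM libraries did not overlap those of SM for 23.0% and those of NSF for 19.5%. The share of genes with NSM apart from all 3 other groups was not counted.

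**Figure D2:**
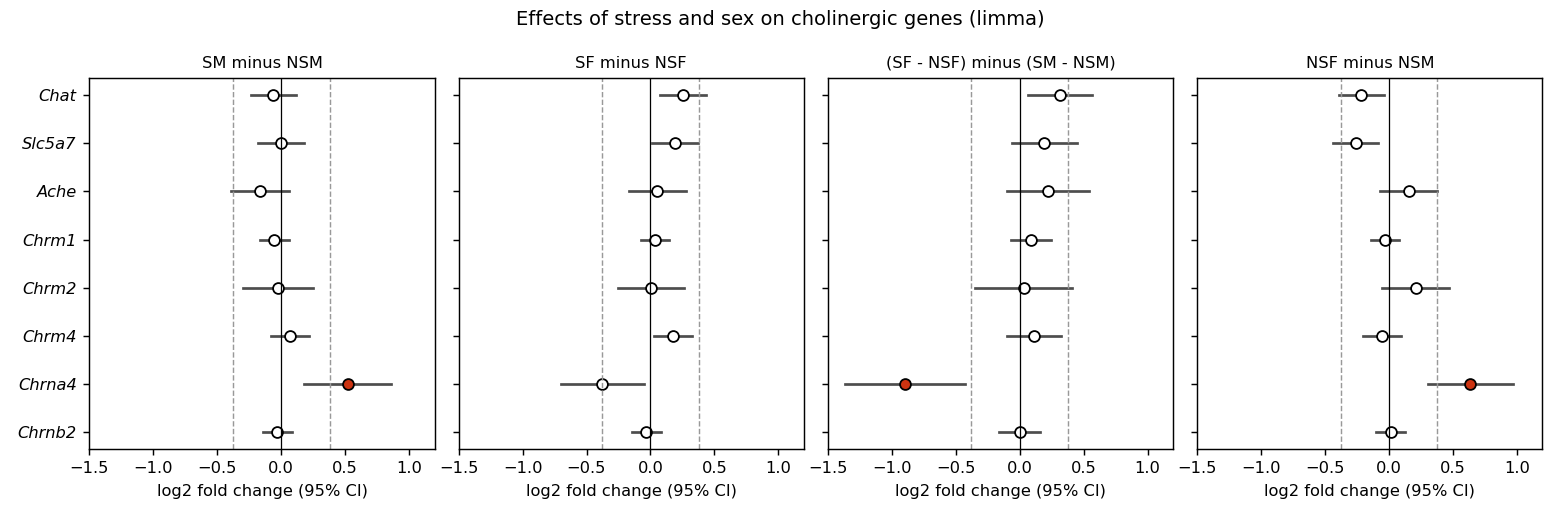
Log2 fold change (horizontal axis) of the 8 genes in the 4 comparisons, with 95% intervals from limma as lines. Red points passed p below 0.05 and a fold of at least 1.3, and dashed lines mark that fold. Chrna4 is the gene called in males (0.52), in the interaction (-0.90) and between the nonstressed sexes (0.64).

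Chrna4 levels followed the cortical markers from library to library. Most of the summed level of these markers was Slc17a7, for example 297 of 369 CPM in NSF3 and 4.02 of 7.19 CPM in NSM2. Over the 12 libraries the log2 level of Chrna4 and the log2 summed level of the 8 cortical markers had a Pearson r of 0.950 and a Spearman rho of 0.958. Each had a permutation p of 1e-05, the smallest that 100000 resamples can give, and 8e-05 after adjustment over the 8 genes examined. Pearson's r was 0.931 without NSM2 and NSF3, the libraries farthest from the median of the markers, and 0.949 for deviations from the group means. The relation was examined after the values had been seen. The permutations shuffled libraries across groups, and both levels also differed between groups. The part of cortical tissue in the differences in Chrna4 was not tested. All 8 cortical markers had a positive log2 difference in males, of which 2 rose by the same thresholds, against 2.36% of all genes. In the interaction 6 of the 8 were called in the negative direction, against 2.17%. Between the nonstressed sexes 6 of 8 were called as higher in females, against 4.17%. Slc17a7 itself had a log2 difference of 3.29 in males, -4.32 in the interaction and 3.42 between the nonstressed sexes.

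A fit on only the 7 libraries with under 100 CPM of cortical markers, chosen after seeing the data, kept 1 library of SM, 1 of NSF, 2 of SF and all 3 of NSM. It assumes that a lone library varies like those of the other groups. It leaves out NSF1, NSF3, SM2, SM3 and SF3, where Chrna4 was also highest, so it cannot show whether the differences in Chrna4 hold. There the male difference in Chrna4 was 0.36, a fold under 1.3, and the female difference was -0.02. The difference between the nonstressed sexes was 0.22, and the interaction was -0.38. With all 12 libraries the interaction was -0.90, and its value of -0.381 in this fit lay just past the log2 fold limit of 0.379.

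**Figure D3:**
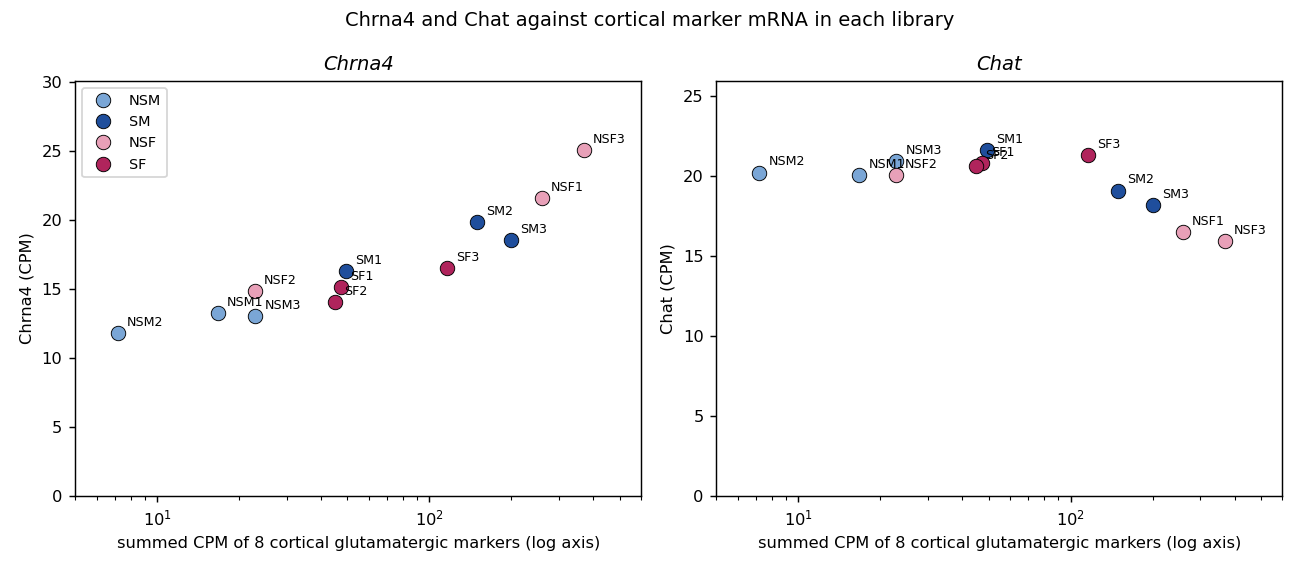
Level of Chrna4 (left) and Chat (right) in CPM against the summed CPM of 8 cortical glutamatergic markers on a log axis, 1 point per library. Chrna4 climbs along the axis from 11.8 CPM in NSM2 to 25.0 CPM in NSF3, and the lowest Chat level, 15.95 CPM, is in NSF3.

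Chrnb2, the beta subunit that joins the Chrna4 product, lies at chr3:89557370-89568554 on the minus strand. It was at 65.9, 64.3 and 61.2 CPM in NSM, 65.7, 63.4 and 58.4 CPM in SM, 62.0, 64.1 and 67.2 CPM in NSF, and 63.4, 62.1 and 63.7 CPM in SF. The 4 groups overlapped throughout. Its log2 differences were -0.03 in males (95% interval -0.14 to 0.08), -0.03 in females (95% interval -0.14 to 0.08) and 0.01 between the nonstressed sexes (95% interval -0.10 to 0.13). The highest library was 1.15 times the lowest, against 2.12 times for Chrna4. Per kilobase of annotated exon, Chrna4 was at 0.200 to 0.232 of the level of Chrnb2 in NSM, 0.270 to 0.346 in SM, 0.252 to 0.407 in NSF and 0.247 to 0.283 in SF. The NSM libraries thus had the lowest share of the alpha subunit mRNA relative to the beta subunit mRNA.

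Chat, the enzyme that makes acetylcholine and the defining marker of cholinergic neurons, lies at chr14:33221389-33279095 on the minus strand. It was at 20.1, 20.2 and 20.9 CPM in NSM and 21.6, 19.1 and 18.2 CPM in SM. It was at 16.5, 20.1 and 15.95 CPM in NSF and 20.8, 20.6 and 21.3 CPM in SF. NSF1 and NSF3 were the lowest libraries, and NSF2 was level with the NSM libraries. The female groups did not overlap, and the male groups did.

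The female means of Chat were 17.5 ± 2.25 CPM in NSF and 20.9 ± 0.351 CPM in SF (SD, n = 3 libraries), a log2 difference of 0.25 (SE 0.083) with an unadjusted limma p of 0.00862 and an adjusted p of 0.948. The fold of 1.19 was under the threshold and Chat was not called. In males the log2 difference was -0.06 (95% interval -0.24 to 0.11). The interaction was 0.31 (95% interval 0.06 to 0.57) and the difference between the nonstressed sexes was -0.22 (95% interval -0.39 to -0.04), each with an unadjusted limma p below 0.05 (0.0175 and 0.0193), a fold under 1.3 and an adjusted p of 0.410 and 0.228. Neither was called, though the interaction passed without SM1 (0.38) or NSF2 (0.43). Pearson's r between Chat and the cortical markers was -0.691 over the 12 libraries, with a permutation p of 0.0108 and an adjusted p of 0.0370. Spearman's rho was -0.462, with a permutation p of 0.132 and an adjusted p of 0.351, Pearson's r was -0.658 without NSM2 and NSF3, and r was -0.819 within groups. In the fit on the 7 libraries with few cortical markers the female difference in Chat was 0.049 and that between the nonstressed sexes was -0.027. That fit leaves out NSF1 and NSF3, the lowest Chat libraries, and keeps NSF2 alone of NSF. It cannot show whether these differences hold.

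Slc5a7, the high-affinity choline transporter of cholinergic terminals, lies at chr17:54412919-54438359 on the minus strand. It was at 52.6, 58.5 and 51.0 CPM in NSM, 60.5, 54.0 and 47.8 CPM in SM, 43.8, 49.7 and 41.6 CPM in NSF, and 51.8, 51.0 and 51.1 CPM in SF. The NSF libraries were below all SF and all NSM libraries, and the male groups overlapped. The female difference was 0.19 on the log2 scale (SE 0.083) with an unadjusted limma p of 0.0405 and an adjusted p of 0.948. The difference between the nonstressed sexes was -0.26 (SE 0.083) with an unadjusted limma p of 0.00729 and an adjusted p of 0.162. Neither reached the fold of 1.3, and the male difference was -0.00 (95% interval -0.18 to 0.18). With few cortical markers, in 7 libraries, the female difference was 0.053 and that between the nonstressed sexes was -0.12. NSF2, the highest NSF library for Slc5a7, is the only NSF library there, so that fit cannot show whether these differences hold.

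Chat and Slc5a7 are used by the same neurons, and their levels varied together with r = 0.817 over the 12 libraries and 0.792 within groups. Both measures share their libraries, so this is a description. Per kilobase of exon, Slc5a7 was 1.301 to 1.570 times Chat in all 12 libraries. Chat and Chrna4 varied in opposite directions, with r = -0.798 over the 12 libraries and -0.818 within groups. Pearson's r of Slc5a7 with the cortical markers was -0.679 (permutation p 0.0139, adjusted p 0.0370) and Spearman's rho was -0.525 (permutation p 0.0822, adjusted p 0.329). Without NSM2 and NSF3 its r was -0.412, so this relation leans on those libraries, and it was -0.850 within groups.

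Of the 8 genes, 4 had an unadjusted p below 0.05 in females when no fold was required (Chat, Slc5a7, Chrm4 and Chrna4), against 4.23% of all genes. In the same way 1 of 8 did in males against 21.5% of all genes, 2 of 8 in the interaction against 9.55%, and 3 of 8 between the nonstressed sexes against 15.4%. The female count was 1 (Chat) without NSF1, NSF3 or SF1, and 2 without SF2. Without NSF1 or without NSF3 the count was 1 in the interaction and 2 between the nonstressed sexes, and without NSM1 it was 2 in males. It rose to 3 in the interaction without SM1 or NSF2, and to 4 between the nonstressed sexes without NSM3, NSF2 or SF1. The fit on the 7 libraries with few cortical markers keeps 1 library of SM and 1 of NSF, so a count from it cannot be set beside these shares. Its female log2 differences were 0.049 for Chat, 0.053 for Slc5a7, 0.13 for Chrm4 and -0.02 for Chrna4. The groups did not overlap for 2 of the 8 in females (Chat and Slc5a7), against 11.3% of all genes, and for 2 of the 8 between the nonstressed sexes (Slc5a7 and Chrna4), against 19.5%. In females no gene of the 18593 passed an adjusted p below 0.05 by limma, while 786 had an unadjusted p below 0.05.

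The promoters of Chrna4, Chat and Slc5a7 are shown because Chat and Slc5a7 varied together across libraries and Chrna4 varied against both. They are RefSeq sequences of 300 bases around the annotated start, in GRCm38.p6 coordinates, at chr2:181039128-181039427 (Chrna4), chr14:32465860-32466159 (Chat) and chr17:54298985-54299284 (Slc5a7), all on the minus strand. Capitals mark GC boxes, searched as GGGCGG and, for the other strand, CCGCCC.
Chrna4: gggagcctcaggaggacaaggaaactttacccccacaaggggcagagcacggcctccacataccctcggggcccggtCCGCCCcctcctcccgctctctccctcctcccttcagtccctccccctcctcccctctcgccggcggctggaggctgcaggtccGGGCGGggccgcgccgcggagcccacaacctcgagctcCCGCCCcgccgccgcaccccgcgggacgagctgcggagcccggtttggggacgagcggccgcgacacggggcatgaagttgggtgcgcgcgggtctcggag
Chat: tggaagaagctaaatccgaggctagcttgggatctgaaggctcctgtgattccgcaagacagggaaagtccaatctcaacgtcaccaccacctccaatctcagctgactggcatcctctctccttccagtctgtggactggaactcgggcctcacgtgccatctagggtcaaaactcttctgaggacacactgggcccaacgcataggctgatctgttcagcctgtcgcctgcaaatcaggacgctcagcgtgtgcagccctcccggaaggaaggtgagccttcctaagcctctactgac
Slc5a7: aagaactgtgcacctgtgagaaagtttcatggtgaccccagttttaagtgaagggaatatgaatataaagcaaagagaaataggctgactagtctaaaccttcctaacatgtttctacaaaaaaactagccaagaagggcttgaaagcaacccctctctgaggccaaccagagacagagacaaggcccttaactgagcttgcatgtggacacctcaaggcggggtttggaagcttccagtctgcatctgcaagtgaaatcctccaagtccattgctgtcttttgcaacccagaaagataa
The Chrna4 window holds 3 GC boxes and 74.3% G and C, while the Chat and Slc5a7 windows hold 0 GC boxes and 55.7% and 44.7% G and C. Over all 32851 promoter windows of the table, 35.7% hold at least 1 GC box and the median content of G and C is 52.7%, with a 5th percentile of 36.3% and a 95th of 73.7%. The windows of Ache and Chrm4 hold 4 GC boxes each, and those of Chrm2 and Chrnb2 hold 1 each. A match in letters is not a binding site, and a link between GC boxes and the variation across libraries was not tested.

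Ache, the enzyme that breaks acetylcholine down at the synapse, lies at chr5:137728747-137735694 on the plus strand. It was at 58.2, 65.3 and 75.2 CPM in NSM, 63.0, 50.5 and 63.1 CPM in SM, 67.9, 77.1 and 75.0 CPM in NSF, and 67.6, 81.2 and 79.9 CPM in SF. The NSM and SM libraries overlapped, as did the NSF and SF libraries. The SF libraries were all above the SM libraries, but SF and SM were not compared by a test or over all genes. The interaction of Ache was 0.22 on the log2 scale and was not called. Its log2 differences were -0.17 in males (95% interval -0.40 to 0.06), 0.05 in females (95% interval -0.17 to 0.28) and 0.15 between the nonstressed sexes (95% interval -0.07 to 0.38). None of the 3 intervals excluded 0.

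The muscarinic receptor genes had the highest and the lowest levels of the set per exon length. Chrm1, a receptor that couples to phospholipase C, lies at chr19:8738495-8758077 on the plus strand, Chrm4, an inhibitory receptor of striatal projection neurons, at chr2:91762346-91769986 on the plus strand, and Chrm2, an inhibitory receptor of cholinergic terminals, at chr6:36338084-36478414 on the plus strand. Chrm1 was at 192, 192 and 186 CPM in NSM, 192, 185 and 172 CPM in SM, 183, 191 and 183 CPM in NSF, and 196, 179 and 196 CPM in SF. Its groups overlapped in every comparison, and the highest library was 1.14 times the lowest. The log2 difference was -0.05 in males (95% interval -0.17 to 0.06) and 0.03 in females (95% interval -0.08 to 0.15).

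Chrm4 was at 90.5, 98.8 and 97.6 CPM in NSM, 108, 95.5 and 97.0 CPM in SM, 89.8, 96.1 and 90.4 CPM in NSF, and 116, 95.7 and 102 CPM in SF. The female groups overlapped, since SF2 was below NSF2. The female difference was 0.18 on the log2 scale (SE 0.070) with an unadjusted limma p of 0.0239 and an adjusted p of 0.948, at a fold of 1.13, and it was not called. In males it was 0.07 (95% interval -0.08 to 0.22).

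Chrm2 was at 10.8, 10.3 and 10.2 CPM in NSM, 9.64, 11.2 and 9.90 CPM in SM, 12.0, 10.7 and 14.1 CPM in NSF, and 9.83, 13.6 and 13.3 CPM in SF. All groups overlapped, and the highest values were in NSF3, SF2 and SF3. Its log2 differences were -0.03 in males (95% interval -0.30 to 0.25), 0.01 in females (95% interval -0.25 to 0.26) and 0.21 between the nonstressed sexes (95% interval -0.05 to 0.47). Chrm2 shares 142 exon bases with the antisense gene 9330158H04Rik, which had at most 58 reads, and Chrm4 shares 25 bases with Mdk on the opposite strand. Chrm1 shares 329 exon bases with a 7SK gene on the opposite strand, which had 0 reads in every library. The library kit does not mark strand, so reads from these stretches cannot be assigned to either gene.

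Set side by side per kilobase of exon, the mean levels over the 12 libraries were 35.4 CPM for Chrm4, 29.8 for Chrm1, 14.9 for Ache, 11.8 for Chrnb2, 9.87 for Slc5a7, 6.98 for Chat, 3.37 for Chrna4 and 1.86 for Chrm2. Chrm1 was below Chrm4 in every library, at 0.750 to 0.934 of its level. The ranges of Ache (10.9 to 17.6) and Chrnb2 (10.9 to 12.5) overlapped, as did those of Chrnb2 and Slc5a7 (8.04 to 11.7), so these neighbours do not stand apart. The other neighbours in the order did not overlap, although Chrna4 (2.39 to 5.07) and Chrm2 (1.59 to 2.32) nearly met.

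**Figure D4:**
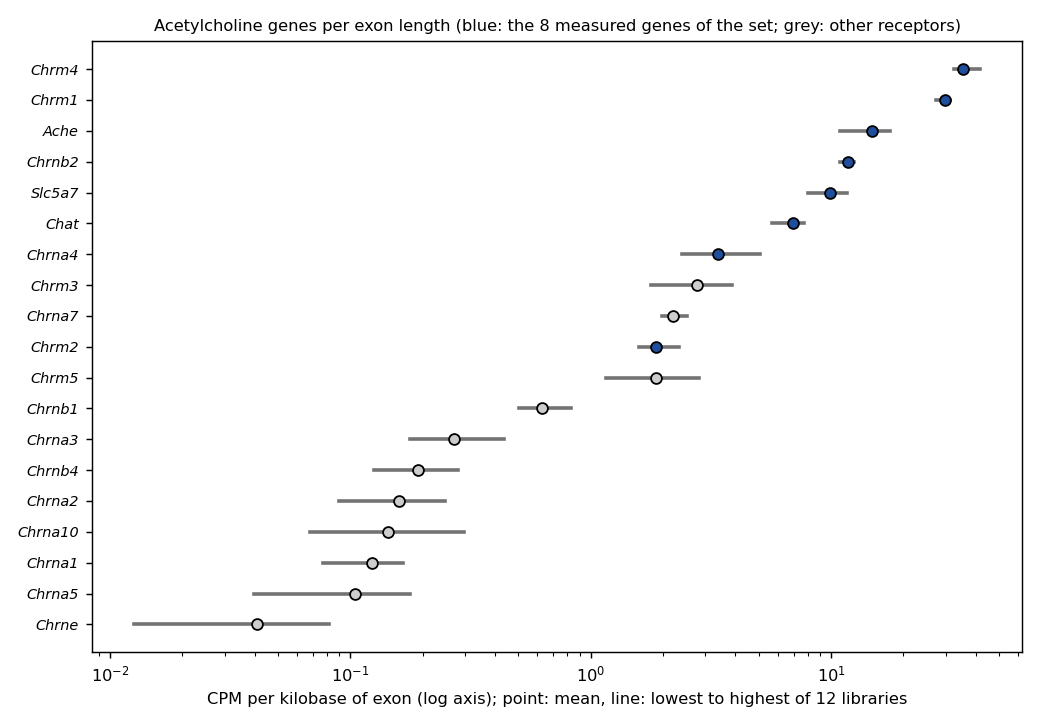
Mean CPM per kilobase of annotated exon (log axis) of the 8 genes (blue) and of other acetylcholine receptor genes above 0 in every library (grey), with the range over 12 libraries as lines. Chrm4 (35.4) and Chrm1 (29.8) lead, and Chrm3 (2.78) and Chrna7 (2.21) are the most abundant of the other receptors.

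Among the other receptor genes, Chrm3 and Chrm5 are muscarinic and 14 encode nicotinic subunits, of which 8 passed the filter. Chrna6, Chrna9, Chrnb3, Chrnd and Chrng were at 0 reads in at least 1 library. Chrm5, the muscarinic receptor known from midbrain dopamine neurons, was at 4.91, 4.02 and 3.95 CPM in NSM, 2.82, 2.25 and 2.02 CPM in SM, 2.41, 3.51 and 3.27 CPM in NSF, and 3.43, 3.58 and 2.86 CPM in SF. Every NSM library was above every library of the other 3 groups, a separation whose share over all genes was not counted. Chrm5 fell by 0.88 on the log2 scale in stressed males (SE 0.17, limma adjusted p 0.0170). The interaction was 0.98 (SE 0.23, limma adjusted p 0.182), and Chrm5 was lower in nonstressed females than in nonstressed males with a log2 difference of -0.48 (SE 0.15, limma adjusted p 0.158). In the 7 libraries with few cortical markers the male difference had the same direction at -0.601. The interaction there was 0.603, and the difference between the nonstressed sexes was -0.29, under the fold limit. Without NSF1 that last difference was -0.34 and under the fold limit.

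Of the nicotinic subunits outside the set, 0 of 8 were called in males, 1 of 8 in females, 1 of 8 in the interaction and 1 of 8 between the nonstressed sexes, each time Chrna2. Over all genes the shares called were 6.44%, 1.73%, 4.42% and 5.31% in the same order. Chrna2 had 14 to 40 reads per library, at 0.688, 0.549 and 0.631 CPM in NSM, 0.680, 0.383 and 0.421 CPM in SM, 0.316, 0.445 and 0.446 CPM in NSF, and 0.572, 0.763 and 0.874 CPM in SF. The NSF libraries lay below all SF and NSM libraries. Chrna2 rose by 0.84 on the log2 scale in stressed females (SE 0.25, limma adjusted p 0.948), with an interaction of 1.22 (SE 0.36, limma adjusted p 0.292) and a log2 difference of -0.62 between nonstressed females and males (SE 0.26, limma adjusted p 0.273). That last call was lost without NSM1 (-0.55), NSM3 (-0.61) or NSF1 (-0.48), with DESeq2 (-0.63) and with library quality weights (-0.58). In the 7 libraries with few cortical markers the values for Chrna2 were 0.57 in females, 0.44 in the interaction and -0.48 between the nonstressed sexes.

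Of 12 genes that handle acetylcholine or partner its receptors, 1 rose and 1 fell in males, 1 rose in females, 1 was called in the interaction and 2 were higher in nonstressed females than in nonstressed males, beside 6.44%, 1.73%, 4.42% and 5.31% of all genes called in these comparisons. The median log2 difference of the 12 was -0.02 in males and 0.02 in females, and the medians of all genes were -0.01 and -0.00. Lynx1, a membrane-bound protein that dampens nicotinic receptors, was at 164, 154 and 139 CPM in NSM, 213, 232 and 221 CPM in SM, 206, 203 and 223 CPM in NSF, and 195, 202 and 234 CPM in SF. The NSM libraries were below all 9 others, again with no share over all genes counted. Lynx1 rose by 0.55 on the log2 scale in stressed males (SE 0.074, limma adjusted p 0.00372), the interaction was -0.55 (SE 0.11, limma adjusted p 0.120), and it was higher in nonstressed females than in nonstressed males by 0.47 (SE 0.074, limma adjusted p 0.0235). Across all alternatives the male difference stayed between 0.49 and 0.61, the fit on the libraries with few cortical markers included.

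Ly6h, a relative of Lynx1 that limits nicotinic receptor traffic, was at 74.5, 103 and 129 CPM in NSM, 72.8, 60.4 and 80.2 CPM in SM, 118, 132 and 153 CPM in NSF, and 90.1, 129 and 131 CPM in SF. Its male groups overlapped, and NSM1 lay among the SM libraries. It fell by 0.49 in stressed males (SE 0.18, limma adjusted p 0.147) and was higher in nonstressed females than in nonstressed males by 0.43 (SE 0.18, limma adjusted p 0.286). The male call was lost without NSM2 (-0.46), NSM3 (-0.30) or SM2 (-0.37), and that between the sexes without NSM1 (0.21), NSM2 (0.45), NSF2 (0.43) or NSF3 (0.32), with DESeq2 (0.39) and with library sizes alone (0.41). In the libraries with few cortical markers these differences were -0.45 in males and 0.41 between the nonstressed sexes, near those with all 12 libraries. Colq, the collagen tail of Ache at the neuromuscular junction, had 7 to 29 reads per library. It rose by 0.81 in stressed females (SE 0.35, limma adjusted p 0.948), from 0.158, 0.478 and 0.404 CPM to 0.551, 0.548 and 0.634 CPM. The call was lost without NSF1, its lowest library (0.38), and without SF1 (0.83), SF2 (0.85) or SF3 (0.74). It was also lost with edgeR (0.69, unadjusted p 0.0509) and with DESeq2 (0.72, unadjusted p 0.0825). In the libraries with few cortical markers, which leave out NSF1, the value was 0.20.

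Of 8 genes listed for cholinergic neuron identity, 7 were tested and Lhx8 was not analysed here. In males 1 fell, in females 1 rose, 1 was called in the interaction and 1 was higher in nonstressed females than in nonstressed males, beside 6.44%, 1.73%, 4.42% and 5.31% of all genes called. Gbx2, a homeobox factor of developing striatal cholinergic neurons, was at 0.918, 1.10 and 1.42 CPM in NSM and 1.11, 0.595 and 0.642 CPM in SM, where SM1 lay within the NSM range. It fell by 0.59 in stressed males (SE 0.24, limma adjusted p 0.173) and had an interaction of 0.92 (SE 0.33, limma adjusted p 0.400). The male call was lost without NSM3 (-0.42), SM2 (-0.42) or SM3 (-0.48), with DESeq2 (-0.55), with only the 6 male libraries in the fit (-0.58) and with library quality weights (-0.40). In the 7 libraries with few cortical markers, with SM1 alone of SM, the values were -0.012 in males and 0.27 in the interaction. Gbx1, a related factor, rose by 0.47 in stressed females (SE 0.20, limma adjusted p 0.948), where SF2 and SF3 were at 4.21 and 4.09 CPM and SF1 at 2.56 CPM, within the NSF range of 2.12 to 3.07 CPM. That call was lost without NSF1 (0.36), NSF3 (0.44), SF2 (0.34) or SF3 (0.37) and with library sizes alone (0.45), and the value was 0.11 in the libraries with few cortical markers.

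Zic4, a zinc-finger factor of the septum and basal forebrain, was higher in nonstressed females (4.51, 4.65 and 6.48 CPM) than in nonstressed males (2.29, 2.54 and 3.10 CPM) by 0.97 on the log2 scale (SE 0.31, limma adjusted p 0.163). The SF libraries ranged from 2.65 to 7.79 CPM. Beside it, Slc17a6, a marker of glutamatergic neurons outside cortex and striatum, was at 1.75 to 2.47 CPM in NSM, 2.77 to 7.39 CPM in NSF and 3.47 to 9.35 CPM in SF, with a log2 difference of 0.96 between the nonstressed sexes (SE 0.42, limma adjusted p 0.295). In the libraries with few cortical markers the difference in Zic4 was 0.82. The part of tissue next to the NAc in the level of Zic4 was not tested.

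**Figure D5:**
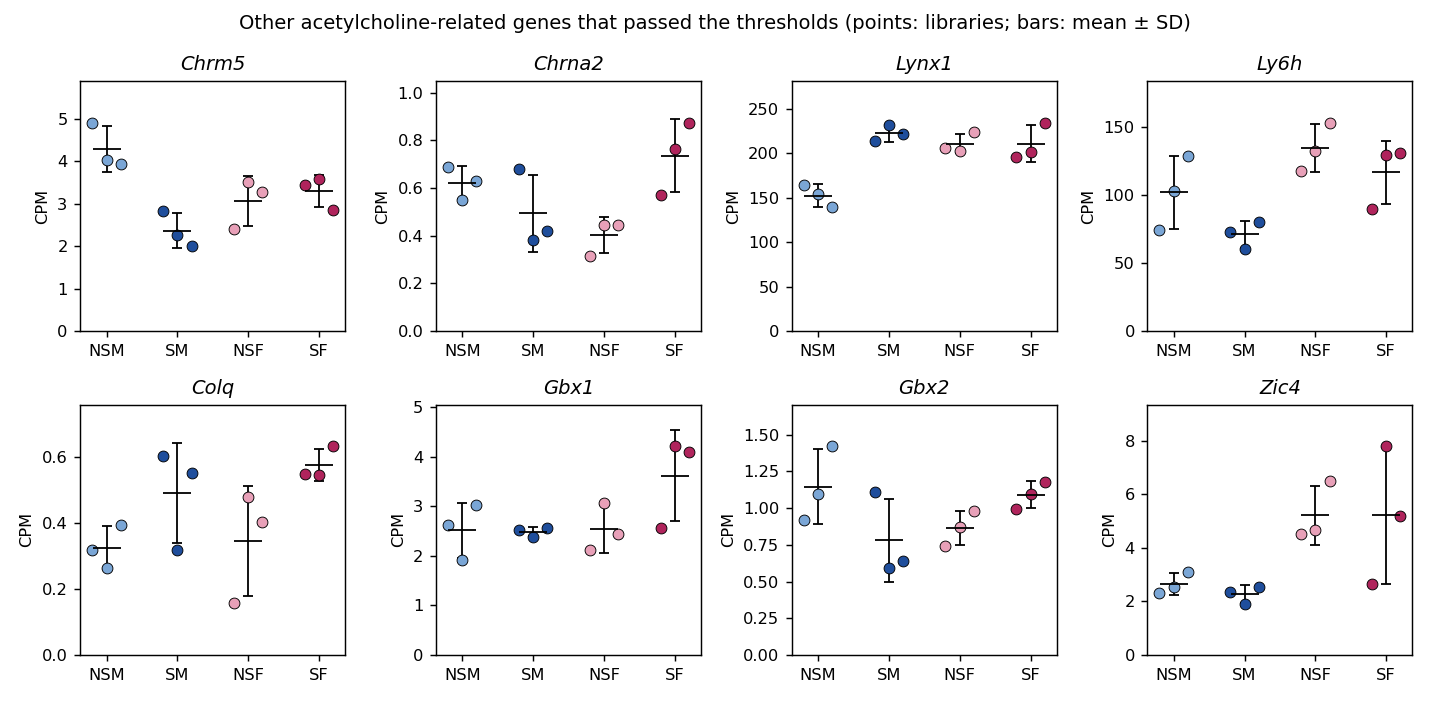
Level in CPM (vertical axis, from 0) of the 8 called genes of the receptor, handling and identity lists in the 12 libraries, by group. Points are libraries, and bars give the mean and SD of 3. In the Lynx1 panel the 3 NSM libraries, at 139 to 164 CPM, lie below the other 9, and in the Chrm5 panel they lie above them.

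Some other cell type markers also differed in the comparisons in which Chrna4, Chrm5 and Lynx1 were called. All 5 red blood cell markers rose in stressed males, with a median log2 difference of 0.74 and a summed level of 21.8 to 27.4 CPM in NSM and 38.5 to 47.2 CPM in SM. All 5 were called in the interaction in the negative direction, with a median of -0.84, and 2 were higher in nonstressed females than in nonstressed males, with summed levels of 29.8 to 38.9 CPM in NSF and 28.8 to 31.9 CPM in SF. The summed level of 6 oligodendrocyte markers was 4601 to 5145 CPM in NSM and 5528 to 5559 CPM in SM, and none of the 6 was called. Of 5 microglia markers 2 rose, with summed levels of 205 to 225 CPM in NSM and 232 to 259 CPM in SM. The summed choroid plexus markers were at 108 CPM in NSM1 and 32.0 to 43.7 CPM in the other 11 libraries. Of 4 endothelial markers 1 was called lower in stressed males. None of the 5 astrocyte markers or the 10 striatal projection neuron markers was called in any comparison. Over all genes, 6.44% were called in males, 4.42% in the interaction and 5.31% between the nonstressed sexes. The part of these cell types in the changes was not tested.

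By likeness of log2 CPM over the 12 libraries, among the 13111 genes that averaged 100 reads or more per library, the genes most like Chrna4 were Fhl2 (r = 0.981), Nov (r = 0.966), Etl4 (r = 0.965), Mpped1 (r = 0.961) and Cck (r = 0.960). Those most like Chat were Ptcd1 (r = 0.957), Tacr3 (r = 0.931), Kirrel3 (r = 0.918), Rgag1 (r = 0.918) and Cux1 (r = 0.890). Cck encodes the neuropeptide cholecystokinin, and Tacr3 a tachykinin receptor. These are descriptions over the same 12 libraries, chosen as the highest of many.

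The small RNA libraries, of 5086554 to 13522287 reads, were examined for mir-132 and mir-212, a pair of neighbouring miRs of which miR-132 is known to act on Ache mRNA. Their mature strands, from RefSeq, lie at chr11:75173723-75173744 and chr11:75173443-75173464 of GRCm38.p6, plus strand, and are shown because they share the seed, bases 2 to 8, in capitals.
miR-132-3p: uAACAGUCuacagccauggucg
miR-212-3p: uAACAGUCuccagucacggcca
The letters that pair with this seed, GACTGTT, occur in 10% of 19915 genes with an annotated 3' UTR. They occur in 0 of the 7 other measured genes' annotated 3' UTRs, that of Ache (228 bases) included, and at 1 place in Chrnb2, where the capitals mark them.
Chrnb2 site: aggcagaaggGACTGTTgagccccaca
The match in Chrnb2 is in letters only.

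Precursor mir-132 was at 3095 ± 149 CPM in NSM, 3301 ± 415 CPM in SM, 3247 ± 384 CPM in NSF and 3204 ± 418 CPM in SF (SD, n = 3 libraries), and its groups overlapped in every comparison. Its log2 difference was 0.09 in males (95% interval -0.15 to 0.32) and -0.02 in females (95% interval -0.25 to 0.21). Precursor mir-212 was at 880 ± 19.1, 870 ± 16.5, 867 ± 17.5 and 869 ± 45.8 CPM in the same order, with log2 differences of -0.02 in males (95% interval -0.15 to 0.12) and 0.00 in females (95% interval -0.13 to 0.14). Neither was called in any comparison, where 5.20% of 500 precursors were called in males, 4.80% in females, 6.80% in the interaction and 7.60% between the nonstressed sexes. Precursor mir-490, named after its values were seen because it lies in an intron of Chrm2, was at 15.1 to 25.6 CPM and was not called in any comparison.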

How the data were processed

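The authors deposited raw read counts per Ensembl gene for 12 mRNA libraries and per miRBase precursor for 12 small RNA libraries. Per the labels and methods, mRNA reads of 50 bases were aligned to NCBIM37 (Ensembl 67) with TopHat2 and counted with HTSeq, and small RNA reads were aligned to mm9 with Bowtie. Versions and the strand setting are not given in the sources used here.

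A gene was kept if, in any group, at least 80% of libraries had over 5 reads for it. Counts were scaled by TMM (edgeR 4.0.16), passed through voom and fitted with limma 3.58.1 in R 4.3.3, with a mean per group and all 12 libraries, which share an estimate of the spread. Tests are two-sided, and n counts pools of 5 mice. Levels per kilobase use the summed exon length of the annotation. Symbols were matched to identifiers through the annotation of the same build. The members and lists were chosen with earlier results of these data known. All 8 measured members are named, and of the receptor, handling and identity lists each called gene that averaged 10 or more reads. Cell type marker lists are given as sums and counts. The alternatives covered DESeq2 1.42.0, edgeR's quasi-likelihood test, other scalings, filters, thresholds and weights, a replicate block and each library left out.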

Additional observations from a re-analysis of the deposited data

Results flagged for a closer look

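The effect of stress differed between males and females, by the interaction term of the limma fit, for Chrna4 and for 4 genes of the pathway lists, out of 2 muscarinic, 8 nicotinic, 12 handling and 7 identity genes tested. Over all genes 4.42% were called in the interaction. The difference of the log2 effects, females minus males, was -0.90 for Chrna4, 0.98 for Chrm5, 1.22 for Chrna2, -0.55 for Lynx1 and 0.92 for Gbx2. The male effects were 0.52 for Chrna4, -0.88 for Chrm5, 0.55 for Lynx1 and -0.59 for Gbx2, and Chrna2 had a female effect of 0.84. Each passed an unadjusted p below 0.05, and the limma adjusted p was 0.199 for Chrna4, 0.182 for Chrm5, 0.292 for Chrna2, 0.120 for Lynx1 and 0.400 for Gbx2. Among the 7 libraries with few cortical markers the interaction was 0.603 for Chrm5, 0.44 for Chrna2, 0.27 for Gbx2, -0.38 for Chrna4 and -0.52 for Lynx1. SM and NSF have 1 library each there, and the size of the Chrna4 value lies at the log2 fold limit of 0.379.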

How the results depend on the processing

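The number of the 8 genes called in females was 1 (Chrna4, whose fold lay at the threshold) in place of 0 with edgeR's quasi-likelihood test, DESeq2, library sizes alone, at least 10 reads in every library, library quality weights or the replicate block. It was 4 with no fold threshold, where the interaction gave 2 and the nonstressed sexes 3. With an adjusted p for the call it was 0 in males, in the interaction and between the nonstressed sexes. The fit on the 7 libraries with few cortical markers keeps 1 library of SM and 1 of NSF, so its number of calls is not comparable with these. Leaving out each library gave 1 to 1 in males, 0 to 1 in females (1 without NSF2 and without SF3), 1 to 2 in the interaction (2, with Chat, without SM1 and without NSF2) and 1 to 1 between the nonstressed sexes. Beyond the fold limit, the cause of these shifts was not tested.

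No called value changed sign. Of 1300 values under the alternatives, 68 did, all of uncalled differences. For Slc5a7 in males the log2 difference was 0.0020 with edgeR, 0.014 with DESeq2, 0.0088 with DESeq2 size factors, 0.0042 with quantile normalization, 0.00070 with at least 10 reads, 0.0021 with 6 libraries, 0.015 with quality weights and -0.084 to 0.088 with a library left out. With library sizes alone Chrm2 in females was -0.0097, Chrnb2 was 0.031 in the interaction and -0.0059 between the nonstressed sexes, mir-212 in males 0.0012 and mir-132 in females 0.041. Chrm2 in males was 0.0049 with quantile normalization, and Chrnb2 in the interaction 0.0077 with at least 1 read. With DESeq2 mir-212 was 0.0079 in males, -0.00083 in females and -0.0087 in the interaction. In the 7 libraries with few cortical markers the differences were, in males, 0.085 for Chat, 0.17 for Slc5a7, 0.022 for Chrm1 and 0.045 for Chrnb2. In females they were -0.052 for Ache and -0.024 for Chrm1, and in the interaction -0.036 for Chat, -0.11 for Slc5a7, -0.046 for Chrm1 and -0.045 for Chrm4. Between the nonstressed sexes they were 0.0076 for Chrm1 and 0.0050 for Chrm4.

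With a library left out, Chrm2 ran from -0.10 to 0.15 in females, -0.089 to 0.015 in males and -0.075 to 0.18 in the interaction. Chrnb2 ran from -0.047 to 0.037 in the interaction, -0.020 to 0.032 between the nonstressed sexes and -0.066 to 0.023 in males. For mir-212 the range was -0.032 to 0.014 in males, -0.044 to 0.037 in females and -0.039 to 0.052 in the interaction. For mir-132 it was -0.13 to 0.060 in females, -0.016 to 0.14 in males and -0.025 to 0.13 between the nonstressed sexes.

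Replicate numbers are shared between groups, but same-numbered libraries did not all deviate together. Of 6 pairs 3 had r over 0.1 (r 0.000725 to 0.316), and 8 of 12 libraries correlated best with their own number. These were both libraries of NSM3 and SM3 and of each female pair, and neither library of the other male pairs. Whether same-numbered libraries share more than a number was not settled. With the replicate block Chrna4 was 0.52 in males, -0.40 in females and -0.92 in the interaction, with adjusted limma p of 0.0196, 0.495 and 0.0388, so it then passed an adjusted p below 0.05 in males and in the interaction, and the call of Colq in females (0.72) was lost. The block lies within a sex, so no value for the nonstressed sexes could be fitted with it. Each of the 8 genes had at least 383 reads in every library, and 3 libraries a group set the precision.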

Other observations

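Chrnb3, a nicotinic subunit gene known from midbrain neurons, did not pass the filter on low counts used here, with 0 to 21 reads per library. It was singled out after its values were seen. The paper did test it and names it, with Chrna4, among genes raised in stressed males and lowered in stressed females. Here Chrnb3 was at 0.018, 0 and 0.020 CPM in NSM, 0.076, 0.255 and 0.332 CPM in SM, 0.406, 0.049 and 0.446 CPM in NSF, and 0, 0.020 and 0.066 CPM in SF. Its 4 highest libraries were NSF3, NSF1, SM3 and SM2, the same 4 in which Chrna4 and the summed cortical markers were highest.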
